A study of Mus musculus with 40 samples.

Results

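The 31 genes described here encode proteins of the lysosome: 4 proteins of its limiting membrane, 6 proteases, 8 enzymes that cut sugars or sulfate from them, 5 proteins that handle lipids, 3 parts of the proton pump and 1 channel, progranulin and Gpnmb, and the transcription factors Tfeb and Tfe3. They were chosen by symbol. All 31 were found among the 53465 gene rows of the count table, and all 31 passed the filter on low counts that left 16921 genes to test. RNA was measured in mouse bladder urothelial cells, the epithelium that lines the bladder, cultured as organoids. The organoids carried a double knockout (dKO) of Kmt2c and Kmt2d, which encode histone H3K4 methyltransferases that act at enhancers, or were wild type (WT). Each genotype received MI-503 at 1 µM for 4 days, or the solvent DMSO. The compound MI-503 keeps menin, the product of Men1, from binding to the methyltransferase encoded by Kmt2a. This gave 4 groups of 2 polyA RNA-seq libraries: dKO MI-503, dKO DMSO, WT MI-503 and WT DMSO. According to the labels, all were grown in medium conditioned with Noggin and R-spondin that held EGF, the ROCK inhibitor Y-27632, the TGF-beta receptor inhibitor A83-01 and N-acetylcysteine. The labels do not say which strain or Cre was used, how old the animals were, whether a genotype is 1 clone, or whether the 2 libraries of a group come from separate cultures. P-values therefore measure only the spread between these libraries. The other 32 of the 40 samples, from other assays, were not analysed here.

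Lysosomes are the acidic compartments in which cells break down proteins, sugars, lipids and membranes that arrive by endocytosis and autophagy. A vacuolar proton pump (V-ATPase) acidifies them, and most of their soluble hydrolases are carried there from the Golgi by sorting receptors. Tfeb and its relative Tfe3 are basic helix-loop-helix proteins that bind E-box sequences in the promoters of many lysosome genes, the CLEAR motifs. Their entry into the nucleus is set mainly by phosphorylation downstream of mTORC1, so their RNA level is not a measure of their activity. In superficial urothelial cells, endosomes and lysosomes take up and degrade uroplakin membrane.

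Library totals ran from 58113705 to 68571176 counts. Values below are CPM, the share of a library's counts on a per-million scale, scaled by TMM, a method that matches libraries on the bulk of their genes, with the 2 libraries of a group in replicate order. A fold change is on the log2 scale with its standard error (SE), and a gene is said to rise or fall where its edgeR p-value, adjusted over the 16921 genes, was at most 0.05. With 2 libraries against 2, an exact two-sided permutation test of a single gene cannot go below p = 0.333, so the calls rest on the spread pooled across genes, with 4 residual degrees of freedom. Kmt2c averaged 28.2 CPM in dKO MI-503, 53.8 in dKO DMSO, 61.0 in WT MI-503 and 111 in WT DMSO, whereas Kmt2d was higher in dKO than in WT by a log2 fold change of 0.43 in DMSO and 0.43 in MI-503. The counts cover whole genes and cannot show a deleted exon, so dKO below means the libraries labelled dKO. Of 19 urothelial markers, 18 passed the filter, and their summed level was 20790.0 to 23348 CPM in dKO MI-503, 20699.5 to 23106 in dKO DMSO, 18542 to 19520.1 in WT MI-503 and 12619 to 13815 in WT DMSO. The markers did not all move alike. The basal keratin Krt5 had 11012 and 9767 CPM in dKO MI-503, 9063 and 10095 in dKO DMSO, 7674 and 7266 in WT MI-503 and 4130.4 and 3817 in WT DMSO. The basal factor Trp63 had 566 and 565 CPM in dKO MI-503, 1019 and 991 in dKO DMSO, 236 and 234 in WT MI-503 and 462 and 451 in WT DMSO. Krt7, a keratin of simple and transitional epithelia, had 3013 and 2754 CPM in dKO MI-503, 1978 and 2152 in dKO DMSO, 5086 and 4892 in WT MI-503 and 1367 and 1255 in WT DMSO. Krt18 and Krt19 were instead highest in WT DMSO, at 1054 and 980 CPM and at 3663 and 3297 CPM. Pparg had 3.40 to 8.49 CPM in dKO and 19.9 to 21.1 in WT. Krt20 went the other way by genotype, with 6.60 to 11.3 CPM in dKO and 0.260 to 0.518 in WT. Upk1a, Upk2 and Upk3a reached at most 1.90, 0.149 and 2.58 CPM, and Upk1b 144. With MI-503, 27.8% of the 18 tested markers rose and 44.4% fell in dKO. In WT 44.4% rose and 38.9% fell, and the shares of all genes are given below. Urothelial markers thus moved with genotype and treatment, and their part in the results below was not tested. The WT DMSO libraries stood apart: 15 endoplasmic reticulum (ER) chaperone genes took 3.68% and 3.95% of their counts, against 0.420% to 0.547% in the other 6 libraries. Comparisons that use WT DMSO include that difference, and its part in them was not tested.

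With MI-503, most lysosome genes rose in both genotypes, and by more in WT than in dKO. In dKO, 24 of the 31 rose and 2 fell, where 29.1% of all genes tested rose, 26.5% fell and 55.6% did either. In WT, 26 rose and 5 fell, where 35.2% of all genes rose, 33.7% fell and 69% did either. The median log2 fold change of the 31 was 0.48 in dKO and 1.18 in WT, beside 0.031 in each genotype over all genes tested. A rise of at least 2-fold was seen for 4 of the 31 in dKO and 19 in WT. Of all 16921 genes tested, 1504 rose that much in dKO and 2773 in WT. The MI-503 and DMSO libraries did not overlap for 29 of the 31 in dKO, where this held for 75.1% of all genes, and for all 31 in WT, where it held for 83.4%. The same 24 genes that rose in dKO were among the 26 that rose in WT, and 21.1% of all genes rose in both; the genotypes share no library in these contrasts. Summed over the 31 genes, the level was 4327 and 4282 CPM in dKO MI-503, 3038 and 2963 in dKO DMSO, 6906 and 7066 in WT MI-503 and 3815 and 3787 in WT DMSO. The MI-503 libraries thus held 1.43 times the DMSO level in dKO and 1.84 times in WT. Without Gpnmb and Ctsl, which made up 16.8% and 24.4% to 24.7% of the sum in WT MI-503, the ratios were 1.32 in dKO and 1.66 in WT. In such bulk samples, more cells of a type and more RNA per cell cannot be told apart. Scaling by library size alone moved the median of all genes by 0.17 in WT and 0.015 in dKO. It left 26 members risen and 2 fallen in WT, and the same 24 and 2 in dKO.

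**Figure D1:**
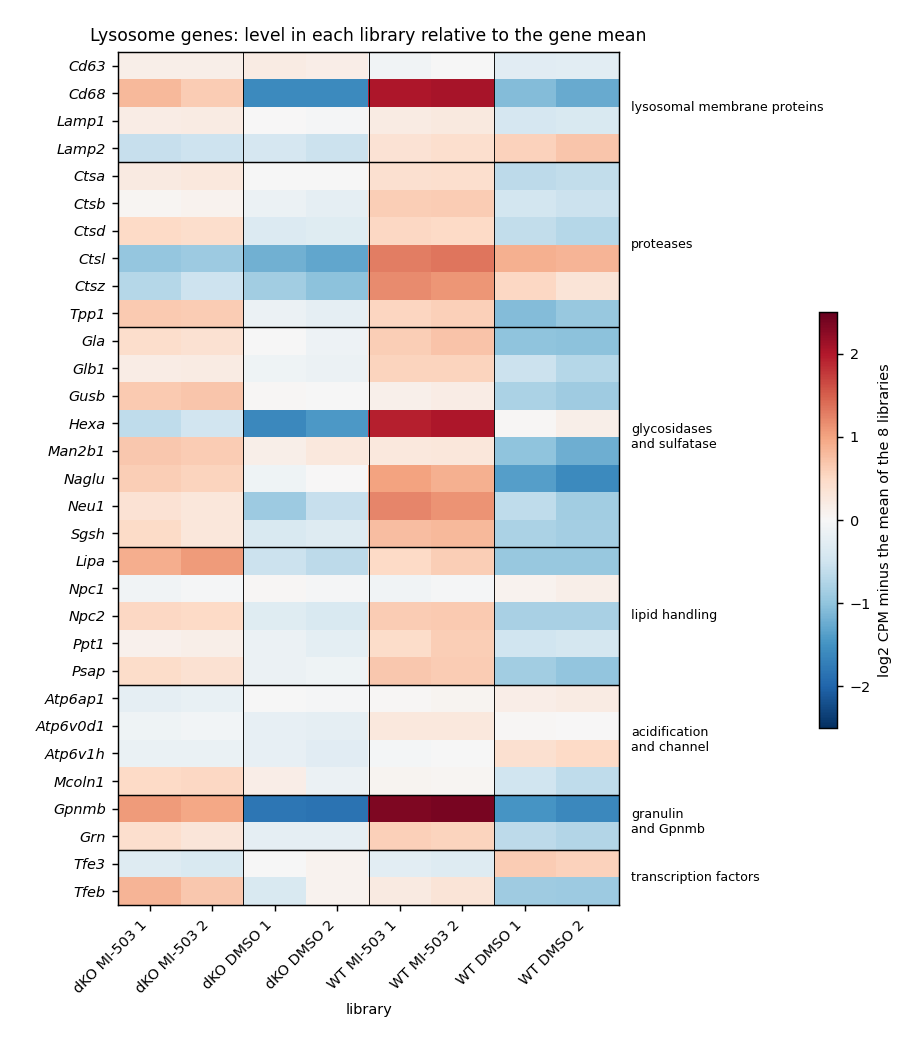
Level of each of the 31 lysosome genes in each of the 8 libraries, as log2 CPM minus the gene's mean over the libraries, with genes ordered by role. By group means, WT MI-503 is the highest group for 19 rows, WT DMSO the lowest for 20 and both hold for 13, and Lamp2, Ctsl, Ctsz and Hexa are low in all 4 dKO columns. Highest and lowest groups were not counted over all genes.

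**Figure D2:**
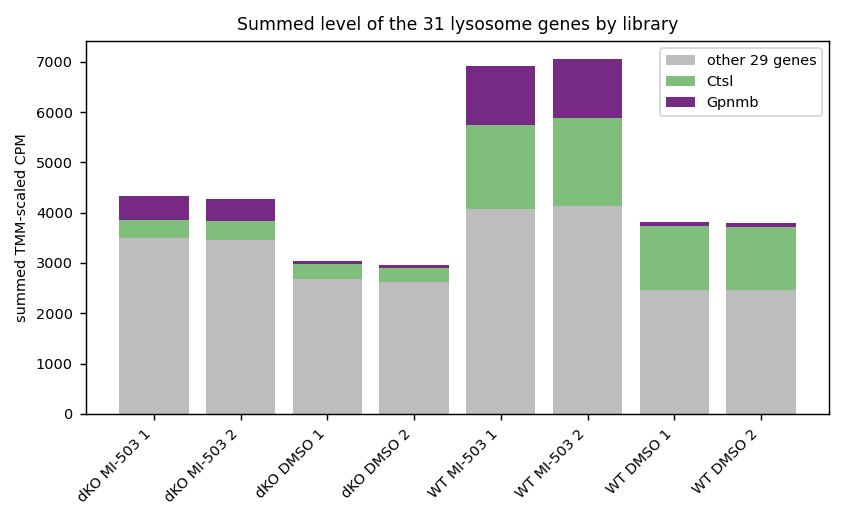
Stacked bars of the summed TMM-scaled CPM of the 31 lysosome genes in each library, split into Gpnmb, Ctsl and the other 29 genes. The dKO MI-503 bars reach 4327 and 4282 CPM above dKO DMSO bars of 3038 and 2963, and the WT MI-503 bars reach 6906 and 7066 CPM above WT DMSO bars of 3815 and 3787.

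Gpnmb, a transmembrane glycoprotein of lysosomes and melanosomes, and Cd68, a relative of the Lamp proteins best known from macrophages, showed the 2 largest rises among the members. Gpnmb (chr6:49036518-49058182 on GRCm38) measured 476 and 448 CPM in dKO MI-503, 65.0 and 63.6 in dKO DMSO, 1157 and 1188 in WT MI-503 and 82.4 and 74.8 in WT DMSO. All MI-503 libraries lay far above all DMSO libraries, and the dKO MI-503 libraries below the WT MI-503 libraries. The log2 fold change with MI-503 was 2.84 (SE 0.057, adjusted p = 4.47e-13) in dKO and 3.90 (SE 0.060, adjusted p = 1.24e-14) in WT. Gpnmb made up 16.8% of the members' summed level in each WT MI-503 library. Cd68 (chr11:69664213-69666170) measured 69.8 and 61.2 CPM in dKO MI-503, 13.1 and 13.1 in dKO DMSO, 160.3 and 166 in WT MI-503 and 18.6 and 16.5 in WT DMSO. Its order of groups was that of Gpnmb, and the log2 fold change with MI-503 was 2.32 (SE 0.076, adjusted p = 2.93e-11) in dKO and 3.22 (SE 0.076, adjusted p = 4.65e-13) in WT. Grn encodes progranulin, a secreted precursor that is cut into granulins in lysosomes. It had 124 and 114 CPM in dKO MI-503, 78.9 and 79.2 in dKO DMSO, 140.2 and 136 in WT MI-503 and 58.7 and 55.7 in WT DMSO, and the MI-503 libraries of each genotype exceeded its DMSO libraries. Its log2 fold change with MI-503 was 0.59 (SE 0.053, adjusted p = 4.82e-07) in dKO and 1.27 (SE 0.054, adjusted p = 8.39e-11) in WT.

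Cd68 and Gpnmb are also expressed by macrophages, and Gpnmb by melanocytes, so markers of other cell types were read in the same libraries. Of 16 macrophage markers, 14 were below 1 CPM in every library, and 8 of these were at 0 in all 8 libraries, among them Adgre1, C1qa, C1qb, C1qc, Lyz2 and Tyrobp. The summed macrophage markers were 30.2 to 31.8 CPM in dKO MI-503, 14.1 to 14.8 in dKO DMSO, 44.9 to 47.5 in WT MI-503 and 9.04 to 10.2 in WT DMSO. Nearly all of that was Cd14, a receptor for bacterial lipopolysaccharide, with 29.3 and 30.7 CPM in dKO MI-503, 13.6 and 14.4 in dKO DMSO, 46.5 and 44.0 in WT MI-503 and 9.88 and 8.91 in WT DMSO. All 6 melanocyte markers and all 6 endothelial markers were below 1 CPM in every library, with sums of 0.248 to 0.849 CPM and 0.0981 to 0.468 CPM over the 8 libraries. Of the melanocyte markers 2 were at 0 throughout. Of 12 fibroblast and smooth muscle markers, 10 were below 1 CPM in every library and 3 were at 0 in all of them. Their sum was 15.4 to 16.1 CPM in dKO MI-503, 4.99 to 5.41 in dKO DMSO, 41.8 to 44.1 in WT MI-503 and 4.53 to 5.74 in WT DMSO. The 2 others were Acta2 and Pdgfra. Acta2, smooth muscle actin, had 7.12 and 7.15 CPM in dKO MI-503, 1.11 and 0.869 in dKO DMSO, 42.0 and 39.6 in WT MI-503 and 2.77 and 3.64 in WT DMSO. Pdgfra, a growth factor receptor of fibroblasts, had 7.41 and 8.27 CPM in dKO MI-503, 3.44 and 3.95 in dKO DMSO, 1.21 and 1.49 in WT MI-503 and 0.928 and 1.24 in WT DMSO. Like Gpnmb and Cd68, Cd14 and Acta2 were thus highest in WT MI-503, and their part in the result was not tested.

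Among the proteins of the lysosomal membrane, Lamp1 and Lamp2 went different ways. Both are abundant glycoproteins that line the inside of the membrane. Lamp1 (chr8:13159161-13175338) measured 379 and 384 CPM in dKO MI-503, 338 and 326 in dKO DMSO, 386 and 399 in WT MI-503 and 251 and 256 in WT DMSO, with the WT DMSO libraries lowest. Its log2 fold change with MI-503 was 0.20 (SE 0.044, adjusted p = 0.00134) in dKO and 0.63 (SE 0.044, adjusted p = 1.46e-08) in WT. Lamp2 (chrX:38399647-38456460) measured 217 and 228 CPM in dKO MI-503, 243 and 223 in dKO DMSO, 415 and 437 in WT MI-503 and 484 and 524 in WT DMSO. Every dKO library lay below every WT library, and the MI-503 and DMSO libraries overlapped in dKO. With MI-503 Lamp2 fell in WT, with a log2 fold change of -0.24 (SE 0.057, adjusted p = 0.00164), and did not pass in dKO at -0.066 (SE 0.057, adjusted p = 0.351). With scaling by library size alone the WT value was -0.068 (adjusted p = 0.279) and no longer passed. Cd63, a tetraspanin of late endosomes and lysosomes, had 226 and 225 CPM in dKO MI-503, 236 and 228 in dKO DMSO, 191 and 201 in WT MI-503 and 167 and 170.4 in WT DMSO. The dKO libraries were the higher ones under either treatment, and the log2 fold change with MI-503 was -0.039 (SE 0.045, adjusted p = 0.492) in dKO, which did not pass, and 0.22 (SE 0.045, adjusted p = 0.000759) in WT.

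All 6 proteases rose with MI-503 in WT and 5 of 6 rose in dKO, beside 35.2% and 29.1% of all genes. Their median log2 fold change was 0.33 in dKO and 1.08 in WT, beside 0.031 over all genes in each genotype. Ctsd, the main aspartic protease of lysosomes, had 502 and 482 CPM in dKO MI-503, 282 and 288 in dKO DMSO, 511 and 505 in WT MI-503 and 232 and 216 in WT DMSO. The MI-503 libraries of the 2 genotypes were close together, and the log2 fold change was 0.79 (SE 0.048, adjusted p = 1e-08) in dKO and 1.18 (SE 0.048, adjusted p = 6.04e-11) in WT. Tpp1, a tripeptidyl peptidase lost in a neuronal ceroid lipofuscinosis, had 132 and 129 CPM in dKO MI-503, 75.9 and 71.7 in dKO DMSO, 121 and 126 in WT MI-503 and 39.3 and 43.2 in WT DMSO, with a log2 fold change of 0.83 (SE 0.056, adjusted p = 2.76e-08) in dKO and 1.58 (SE 0.057, adjusted p = 2.07e-11) in WT. WT DMSO was lowest, and the MI-503 libraries of both genotypes lay far above it. Ctsb, a cysteine protease, had 265 and 272 CPM in dKO MI-503, 231 and 218 in dKO DMSO, 390.4 and 395 in WT MI-503 and 185 and 176 in WT DMSO. The WT libraries thus held both its highest and its lowest values, and the log2 fold change was 0.26 (SE 0.047, adjusted p = 0.000298) in dKO and 1.12 (SE 0.047, adjusted p = 9.07e-11) in WT. Ctsa, a carboxypeptidase that also shields Neu1 and Glb1 from degradation, had 61.0 and 62.8 CPM in dKO MI-503, 51.8 and 52.0 in dKO DMSO, 68.9 and 70.3 in WT MI-503 and 33.1 and 34.1 in WT DMSO. Its pattern was that of Ctsb, with a log2 fold change of 0.26 (SE 0.051, adjusted p = 0.000762) in dKO and 1.05 (SE 0.053, adjusted p = 4.64e-10) in WT. Ctsl (chr13:64361890-64370772), another cysteine protease, had 355 and 369 CPM in dKO MI-503, 300.2 and 281 in dKO DMSO, 1685 and 1748 in WT MI-503 and 1274 and 1246 in WT DMSO. The gap between genotypes exceeded that between treatments: every dKO library was under every WT library. Its log2 fold change with MI-503 was 0.32 (SE 0.049, adjusted p = 8.38e-05) in dKO and 0.45 (SE 0.049, adjusted p = 1.65e-06) in WT. Ctsz, a carboxypeptidase, was low throughout, with 1.38 and 1.57 CPM in dKO MI-503, 1.23 and 1.11 in dKO DMSO, 5.13 and 4.83 in WT MI-503 and 3.24 and 2.83 in WT DMSO. It too was lower in dKO, and its log2 fold change with MI-503 was 0.34 (SE 0.17, adjusted p = 0.113) in dKO, which did not pass, and 0.72 (SE 0.13, adjusted p = 0.000271) in WT. Ctsa, Ctsb and Ctsz overlap other annotated genes, as do Lamp2, Hexa, Glb1, Sgsh, Ppt1, Npc1 and Tfe3 of the other groups, and with the strand setting of the counting unknown, part of their counts may belong to those neighbours.

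All 8 genes of the glycosidase and sulfatase group rose with MI-503 in both genotypes, as did 21.1% of all genes. Their median log2 fold change was 0.65 in dKO and 1.65 in WT, beside 0.031 over all genes in each genotype. Naglu (chr11:101070090-101077672) and Sgsh take part in the stepwise breakdown of heparan sulfate. Naglu had 18.4 and 17.8 CPM in dKO MI-503, 11.2 and 12.2 in dKO DMSO, 24.2 and 22.4 in WT MI-503 and 4.62 and 4.00 in WT DMSO, with the WT DMSO libraries far below the other groups, and a log2 fold change of 0.63 (SE 0.084, adjusted p = 2.19e-05) in dKO and 2.43 (SE 0.094, adjusted p = 3.4e-11) in WT. Sgsh had 17.5 and 15.4 CPM in dKO MI-503, 9.69 and 10.1 in dKO DMSO, 21.4 and 22 in WT MI-503 and 7.26 and 6.96 in WT DMSO, with a log2 fold change of 0.73 (SE 0.083, adjusted p = 4.31e-06) in dKO and 1.61 (SE 0.085, adjusted p = 8.23e-10) in WT. Its groups stood in the same order. Neu1, the lysosomal sialidase, had 27.2 and 25.7 CPM in dKO MI-503, 11.3 and 14.1 in dKO DMSO, 49.3 and 46.4 in WT MI-503 and 13.7 and 11.6 in WT DMSO. The DMSO libraries of the 2 genotypes overlapped, and the log2 fold change with MI-503 was 1.05 (SE 0.10, adjusted p = 8.25e-07) in dKO and 1.92 (SE 0.10, adjusted p = 7.13e-10) in WT. Hexa (chr9:59539540-59565109) encodes the alpha subunit of beta-hexosaminidase, which degrades the ganglioside GM2 and is deficient in Tay-Sachs disease. It had 5.58 and 6.19 CPM in dKO MI-503, 2.85 and 3.22 in dKO DMSO, 33.4 and 35.3 in WT MI-503 and 8.82 and 9.66 in WT DMSO. Here all 4 dKO libraries lay below all 4 WT libraries, and the log2 fold change with MI-503 was 0.95 (SE 0.11, adjusted p = 3.83e-06) in dKO and 1.89 (SE 0.086, adjusted p = 1.84e-10) in WT. Gla, the alpha-galactosidase deficient in Fabry disease, had 19.1 and 18.3 CPM in dKO MI-503, 13.9 and 12.8 in dKO DMSO, 21.5 and 23.1 in WT MI-503 and 7.0 and 6.89 in WT DMSO, with a log2 fold change of 0.48 (SE 0.077, adjusted p = 0.000108) in dKO and 1.68 (SE 0.082, adjusted p = 3.48e-10) in WT. Glb1, the beta-galactosidase used as a senescence stain, had 63.2 and 63.9 CPM in dKO MI-503, 51.7 and 49.9 in dKO DMSO, 82.1 and 81.7 in WT MI-503 and 38.5 and 33.7 in WT DMSO, with a log2 fold change of 0.32 (SE 0.062, adjusted p = 0.000502) in dKO and 1.18 (SE 0.063, adjusted p = 8.45e-10) in WT. Gla and Glb1 were both lowest in WT DMSO and highest in WT MI-503. Gusb, a beta-glucuronidase, had 95.4 and 97.2 CPM in dKO MI-503, 61.5 and 60.3 in dKO DMSO, 66.5 and 68.6 in WT MI-503 and 34.9 and 32.7 in WT DMSO, with a log2 fold change of 0.66 (SE 0.052, adjusted p = 1.35e-07) in dKO and 1.00 (SE 0.054, adjusted p = 1.03e-09) in WT. Man2b1, an alpha-mannosidase, had 52.7 and 51.6 CPM in dKO MI-503, 36.7 and 39.7 in dKO DMSO, 39.9 and 40.3 in WT MI-503 and 16.6 and 14.2 in WT DMSO, with a log2 fold change of 0.45 (SE 0.070, adjusted p = 8.98e-05) in dKO and 1.38 (SE 0.075, adjusted p = 1.08e-09) in WT. For Gusb and Man2b1 it was the dKO MI-503 libraries that were highest.

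Of the 5 lipid-handling genes, 4 rose with MI-503 in both genotypes, as did 21.1% of all genes. Psap (chr10:60277628-60302600) encodes prosaposin, the precursor of the saposins that present sphingolipids to their hydrolases. It had 475 and 450.4 CPM in dKO MI-503, 312 and 320.3 in dKO DMSO, 551 and 543 in WT MI-503 and 189 and 174 in WT DMSO, so that WT DMSO was lowest and WT MI-503 highest. The log2 fold change was 0.55 (SE 0.050, adjusted p = 5.66e-07) in dKO and 1.59 (SE 0.051, adjusted p = 7.08e-12) in WT. Lipa, the lysosomal acid lipase that frees cholesterol from its esters, had 95.1 and 106 CPM in dKO MI-503, 35.0 and 32.3 in dKO DMSO, 72.0 and 78.0 in WT MI-503 and 26.1 and 26.2 in WT DMSO. Its highest libraries were those of dKO MI-503, and the log2 fold change was similar in both genotypes, 1.58 (SE 0.067, adjusted p = 3.67e-10) in dKO and 1.52 (SE 0.069, adjusted p = 1.71e-10) in WT. Ppt1, which removes palmitate from proteins, had 32.9 and 34.0 CPM in dKO MI-503, 27.5 and 25.8 in dKO DMSO, 42.2 and 47.2 in WT MI-503 and 21.7 and 22.4 in WT DMSO, with a log2 fold change of 0.33 (SE 0.069, adjusted p = 0.00107) in dKO and 1.02 (SE 0.070, adjusted p = 1.19e-08) in WT. Npc2 and Npc1 work in series to move cholesterol out of the lysosome, Npc2 as a soluble carrier and Npc1 as a membrane protein. Npc2 had 222 and 219 CPM in dKO MI-503, 125 and 118 in dKO DMSO, 239.5 and 243 in WT MI-503 and 87.8 and 88.2 in WT DMSO, and its log2 fold change with MI-503 was 0.86 (SE 0.045, adjusted p = 2.49e-09) in dKO and 1.46 (SE 0.046, adjusted p = 5.81e-12) in WT. Npc1 had 45.9 and 48.1 CPM in dKO MI-503, 49.7 and 47.7 in dKO DMSO, 45.9 and 47.7 in WT MI-503 and 51.6 and 54.1 in WT DMSO, a narrow range in which MI-503 and DMSO libraries overlapped in dKO. Its log2 fold change was -0.052 (SE 0.057, adjusted p = 0.466) in dKO, which did not pass, and -0.18 (SE 0.057, adjusted p = 0.0137) in WT. That WT call did not pass without WT DMSO replicate 2 (-0.15, adjusted p = 0.09) or without WT MI-503 replicate 1 (-0.15, adjusted p = 0.118), nor in DESeq2 (-0.15, adjusted p = 0.058) or with library size alone (-0.0012, adjusted p = 0.988).

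The 3 members that serve the proton pump moved between -0.48 and 0.25 on the log2 scale with MI-503. Atp6v0d1 is a subunit of the membrane sector of the proton pump, Atp6v1h a subunit of its cytosolic sector and Atp6ap1 an accessory protein. Atp6v0d1 had 43.2 and 44.4 CPM in dKO MI-503, 40.4 and 39.5 in dKO DMSO, 55.8 and 55.8 in WT MI-503 and 47.2 and 46.9 in WT DMSO, with a log2 fold change of 0.13 (SE 0.053, adjusted p = 0.047) in dKO and 0.25 (SE 0.052, adjusted p = 0.000858) in WT. The dKO call ended whichever of the 8 libraries was left out, with values from 0.11 to 0.15. Atp6v1h had 69.9 and 70.5 CPM in dKO MI-503, 68.4 and 64.5 in dKO DMSO, 75.8 and 78.7 in WT MI-503 and 104 and 112 in WT DMSO, so that WT DMSO was highest. Its log2 fold change with MI-503 was 0.081 (SE 0.054, adjusted p = 0.228) in dKO, which did not pass, and -0.48 (SE 0.054, adjusted p = 2.1e-06) in WT. Atp6ap1 had 137 and 142 CPM in dKO MI-503, 159 and 157 in dKO DMSO, 164 and 167 in WT MI-503 and 179 and 185 in WT DMSO, with a log2 fold change of -0.18 (SE 0.044, adjusted p = 0.00305) in dKO and -0.13 (SE 0.044, adjusted p = 0.0144) in WT. The WT call for Atp6ap1 ended without WT DMSO replicate 2 (-0.12, adjusted p = 0.0877) or WT MI-503 replicate 1 (-0.12, adjusted p = 0.119). With scaling by library size alone its sign turned, to 0.040 (adjusted p = 0.423). Without either library, the number of members that fell in WT was 3 instead of 5. Mcoln1, the cation channel TRPML1 that releases calcium from lysosomes, had 22 and 22.3 CPM in dKO MI-503, 17.5 and 14.1 in dKO DMSO, 16.4 and 16.3 in WT MI-503 and 11.2 and 10.1 in WT DMSO. The dKO libraries exceeded the WT libraries under the same treatment, and the log2 fold change was 0.49 (SE 0.094, adjusted p = 0.000521) in dKO and 0.62 (SE 0.10, adjusted p = 7.06e-05) in WT.

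The 2 transcription factors moved in opposite directions with MI-503. Tfeb (chr17:47737037-47792416) was low but measured in every library, with 5.68 and 5.01 CPM in dKO MI-503, 2.41 and 3.32 in dKO DMSO, 3.67 and 3.94 in WT MI-503 and 1.69 and 1.67 in WT DMSO. WT DMSO was lowest and dKO MI-503 highest, and the log2 fold change with MI-503 was 0.90 (SE 0.15, adjusted p = 0.000154) in dKO and 1.18 (SE 0.17, adjusted p = 2.34e-05) in WT. Tfe3 (chrX:7762530-7775202) had 69.6 and 66.6 CPM in dKO MI-503, 86.9 and 92.7 in dKO DMSO, 72.7 and 69.4 in WT MI-503 and 136 and 130.3 in WT DMSO. The DMSO libraries were the high ones in each genotype, WT DMSO most of all, and the log2 fold change with MI-503 was -0.40 (SE 0.053, adjusted p = 2.14e-05) in dKO and -0.91 (SE 0.053, adjusted p = 2.35e-09) in WT.

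**Figure D3:**
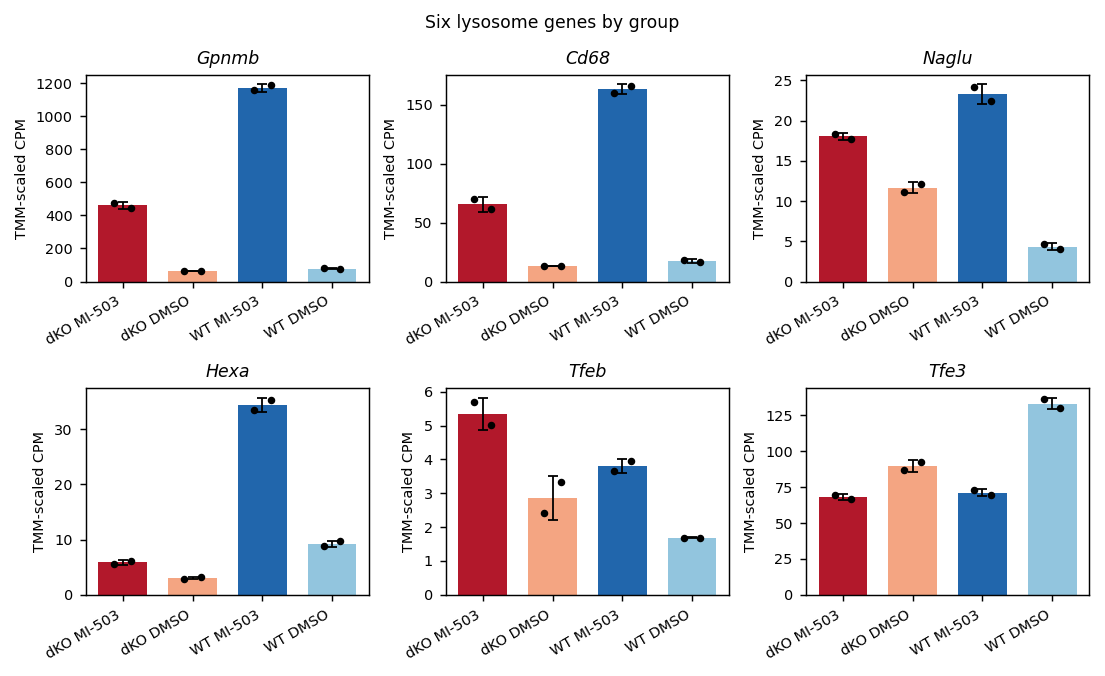
TMM-scaled CPM of Gpnmb, Cd68, Naglu, Hexa, Tfeb and Tfe3 by group, 1 panel per gene, with bars at the mean of 2 libraries, error bars of 1 SD and a point for each library. Gpnmb, Cd68, Naglu and Hexa are highest in WT MI-503, Tfeb is highest in dKO MI-503 (5.68 and 5.01 CPM), and Tfe3 is highest in WT DMSO (136 and 130.3 CPM).

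**Figure D4:**
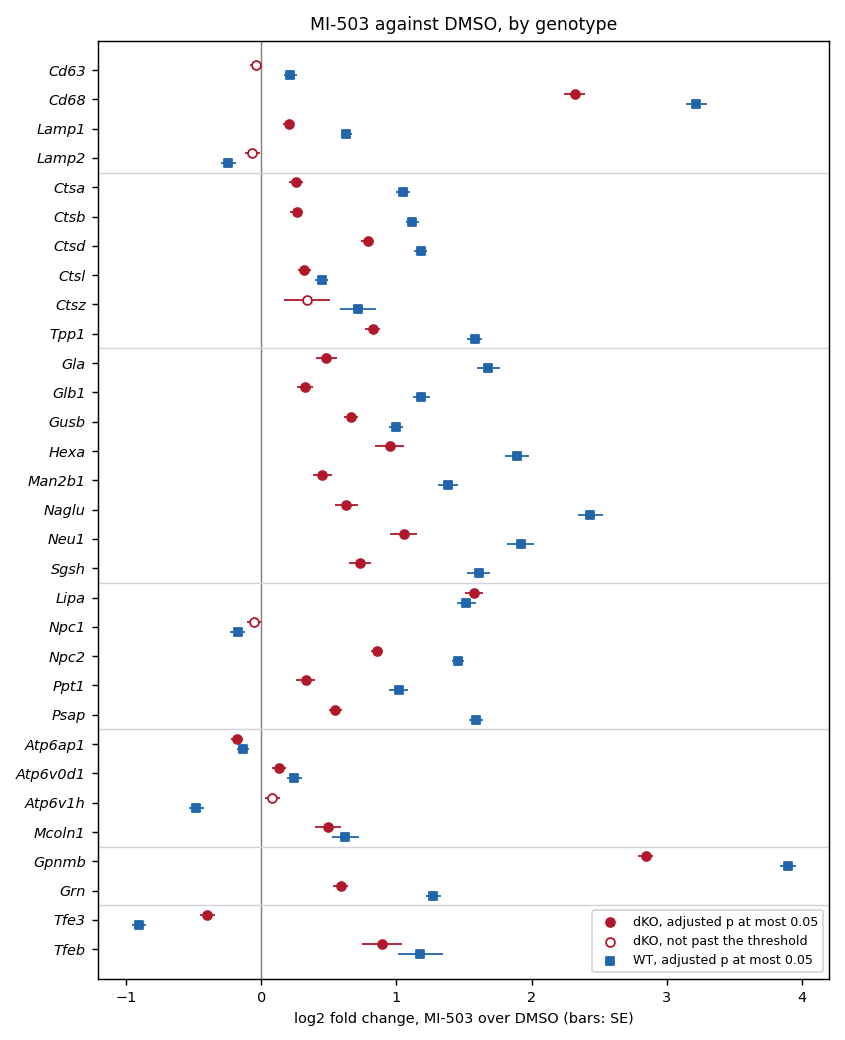
Log2 fold change of each of the 31 lysosome genes with MI-503 against DMSO in dKO and in WT, as points with bars of 1 SE, grouped by role. Gpnmb and Cd68 lie farthest to the right in both genotypes, most WT points lie right of the dKO points of the same gene, and Lipa has nearly the same value in both. Open points did not pass the threshold.

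Since many of these genes moved together, their promoters were searched for the E-box that Tfeb and Tfe3 bind. RefSeq promoter windows on GRCm38.p6, from 250 bases before to 50 after an annotated start, were available for 28 of the 31 members. The letters CACGTG, which read the same on both strands, were present for 10 of the 28, and for 8.09% of the 27025 genes with a window. Those 27025 include genes that were not tested, whereas all 28 members were, so the 2 shares have unlike bases. Among the tested genes with a window, 1252 had CACGTG and 9635 did not, a larger share than 8.09%. The longer TCACGTGA, which contains CACGTG, was present for 5 of the 28 and 1.12% of genes. The 10-letter palindrome with a further G before and C after it was present for 0 of the 28 and 0.37% of genes. A match is a description of these letters and not a binding site. The 9 stretches below are from members that passed in at least 1 comparison and whose box has a T before it or an A after it. CACGTG and any such T or A are in capitals. Each is written 5′ to 3′ on the strand of its gene. All lie upstream of the RefSeq gene except the last 5 bases of the Atp6v0d1 stretch and the stretch of Ctsa, which falls inside the span of that gene, before the start of the transcript used.
Ctsa, chr2:164833739-164833772, plus strand: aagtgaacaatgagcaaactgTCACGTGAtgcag
Ctsd, chr7:142387898-142387947, minus strand: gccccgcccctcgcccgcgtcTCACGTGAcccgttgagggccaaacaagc
Gla, chrX:134601172-134601254, minus strand: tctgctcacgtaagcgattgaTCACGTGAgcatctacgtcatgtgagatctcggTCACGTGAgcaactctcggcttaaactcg
Glb1, chr9:114401008-114401057, plus strand: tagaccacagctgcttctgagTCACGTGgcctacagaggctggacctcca
Naglu, chr11:101069999-101070048, plus strand: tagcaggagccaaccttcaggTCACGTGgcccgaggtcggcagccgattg
Sgsh, chr11:119355512-119355561, minus strand: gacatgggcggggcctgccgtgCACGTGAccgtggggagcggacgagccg
Lamp1, chr8:13159078-13159160, plus strand: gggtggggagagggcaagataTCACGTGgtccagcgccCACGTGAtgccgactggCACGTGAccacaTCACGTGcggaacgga
Mcoln1, chr8:3500426-3500501, plus strand: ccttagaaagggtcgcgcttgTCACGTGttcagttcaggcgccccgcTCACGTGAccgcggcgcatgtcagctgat
Atp6v0d1, chr8:105566060-105566089, minus strand: aagagccaggccctactgcggTCACGTGAg
In Lamp1 4 such boxes follow each other within the printed stretch, and Gla and Mcoln1 have 2 each there. Ctsa and Ctsd also have 2 each in their windows, but those at base 6 of Ctsa and -245 of Ctsd lie outside the printed stretch. Ctsl has its CACGTG at base -236, with neither a T before it nor an A after it, and is therefore not shown. All 10 members with the box rose with MI-503 in both genotypes, and so did 13 of the 18 with a window but no box. Over all genes tested that have a window, 24.6% of the 1252 with the box and 24.6% of the 9635 without it rose in both. The dKO call of Atp6v0d1 ended whichever of the 8 libraries was left out, with adjusted p = 0.0619 to 0.219. Their log2 fold changes ran from 0.13 (Atp6v0d1) to 0.79 (Ctsd) in dKO and from 0.25 (Atp6v0d1) to 2.43 (Naglu) in WT. Gpnmb and Cd68, which rose most, have no CACGTG in their windows.

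Whether MI-503 acted differently in the 2 genotypes was tested with the interaction, the effect in dKO minus the effect in WT. It was negative and passed for 20 of the 31 genes, where 22% of all genes tested did so, and positive for 2, where 24.8% did, with 46.8% in either direction. The median difference was -0.60 over the members and 0.018 over all genes. Of the 24 genes that rose in both genotypes, 19 rose less in dKO. Over all genes tested, 3567 rose in both genotypes, and 1507 of these rose less in dKO. These contrasts rest on all 4 groups, including WT DMSO with its high ER chaperone share. All 8 glycosidase and sulfatase genes were in that direction. The largest differences among the members were those of Naglu, -1.80 (SE 0.13, adjusted p = 1.04e-07), and Gla, -1.20 (SE 0.11, adjusted p = 1.37e-06). Gpnmb differed by -1.05 (SE 0.076, adjusted p = 1.46e-07) and Psap by -1.04 (SE 0.071, adjusted p = 8.61e-08). Cd68 differed by -0.90 (SE 0.10, adjusted p = 9.5e-06) and Ctsb by -0.86 (SE 0.066, adjusted p = 2.75e-07). Hexa, Man2b1, Sgsh, Neu1, Glb1, Ctsa and Tpp1 had differences between -0.94 and -0.75, and Ppt1, Grn, Npc2, Lamp1, Ctsd, Gusb and Cd63 between -0.69 and -0.25. All of these passed. Without WT MI-503 replicate 2, Cd63 no longer passed (-0.21, adjusted p = 0.0505). The positive differences were those of Atp6v1h, 0.56 (SE 0.076, adjusted p = 3.95e-05), and Tfe3, 0.51 (SE 0.075, adjusted p = 8.16e-05), which had fallen with MI-503 in WT. Of the other 9 genes, Lipa differed by 0.059 (SE 0.095, adjusted p = 0.653), Tfeb by -0.28 (SE 0.23, adjusted p = 0.342) and Mcoln1 by -0.13 (SE 0.14, adjusted p = 0.485), none of which passed. Lamp2, at 0.18 (adjusted p = 0.0899), passed without WT DMSO replicate 1 (0.23, adjusted p = 0.0446) or without dKO DMSO replicate 1 (0.24, adjusted p = 0.025). Scaling by library size alone moved the median difference of all genes by -0.16, and the share of positive calls among them was then 37.2% instead of 52.9%. Among the members it left 2 positive and 23 negative.

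Against WT, the dKO libraries held more of most lysosome RNAs in DMSO and less of most in MI-503. In DMSO, 19 of the 31 were higher in dKO and 10 lower, where 29.6% of all genes were higher, 35.8% lower and 65.4% either; the 10 lower ones are thus near the share over all genes. The median log2 fold change was 0.36 over the members and -0.052 over all genes. In MI-503, 6 were higher in dKO and 20 lower, where 26.6% of all genes were higher, 28.5% lower and 55.1% either. The median was -0.24 over the members and 0.0071 over all genes. The dKO and WT libraries did not overlap for 30 of the 31 in DMSO (81.1% of all genes) and for 29 in MI-503 (77.1%). The summed level in dKO was 0.789 of that in WT in DMSO and 0.616 in MI-503. Without Gpnmb and Ctsl it was 1.07 in DMSO and 0.849 in MI-503, since Ctsl alone was about 33% of the sum in WT DMSO. Scaling by library size alone moved the median of all genes by 0.23 in DMSO and 0.069 in MI-503. In DMSO the share of higher calls among all genes was then 61.7% instead of 45.3%, and 19 members were higher and 6 lower. The comparison in MI-503 does not use the WT DMSO libraries, and without them in the fit its counts were again 6 and 20.

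For 10 genes the genotype difference had opposite signs under the 2 treatments: they were higher in dKO in DMSO and lower in dKO in MI-503, as were 3.26% of all genes. These were Ctsa, Ctsb, Gla, Glb1, Grn, Naglu, Npc2, Ppt1, Psap and Sgsh. All 10 also rose with MI-503 in dKO. The order of groups follows from these calls and is no further result: lowest in WT DMSO, highest in WT MI-503 and both dKO groups between. Naglu had a log2 fold change of 1.44 (SE 0.10, adjusted p = 1.32e-08) in DMSO and -0.37 (SE 0.081, adjusted p = 0.00167) in MI-503. Psap had 0.80 (SE 0.051, adjusted p = 7.88e-09) in DMSO and -0.24 (SE 0.050, adjusted p = 0.00102) in MI-503. Ctsb had 0.31 (SE 0.047, adjusted p = 4.95e-05) in DMSO and -0.55 (SE 0.047, adjusted p = 2.98e-07) in MI-503. The DMSO value was the larger in size for Naglu and Psap, and the MI-503 value for Ctsb. For 6 of the 10 (Ctsb, Glb1, Naglu, Ppt1, Psap and Sgsh) both calls held whichever single library was left out. The MI-503 call ended for Ctsa without WT MI-503 replicate 2 (-0.15, adjusted p = 0.115) or dKO MI-503 replicate 1 (-0.15, adjusted p = 0.0964), and for Grn without dKO MI-503 replicate 2 (-0.16, adjusted p = 0.0513). It ended for Gla without WT MI-503 replicate 2 (-0.19, adjusted p = 0.14) or dKO MI-503 replicate 2 (-0.22, adjusted p = 0.0804), and for Npc2 without any of the 4 MI-503 libraries (-0.14 to -0.11). Ctsd, Lamp1 and Tpp1 were higher in dKO in DMSO, at 0.35, 0.39 and 0.84 on the log2 scale, and did not pass in MI-503, at -0.045, -0.039 and 0.087.

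**Figure D5:**
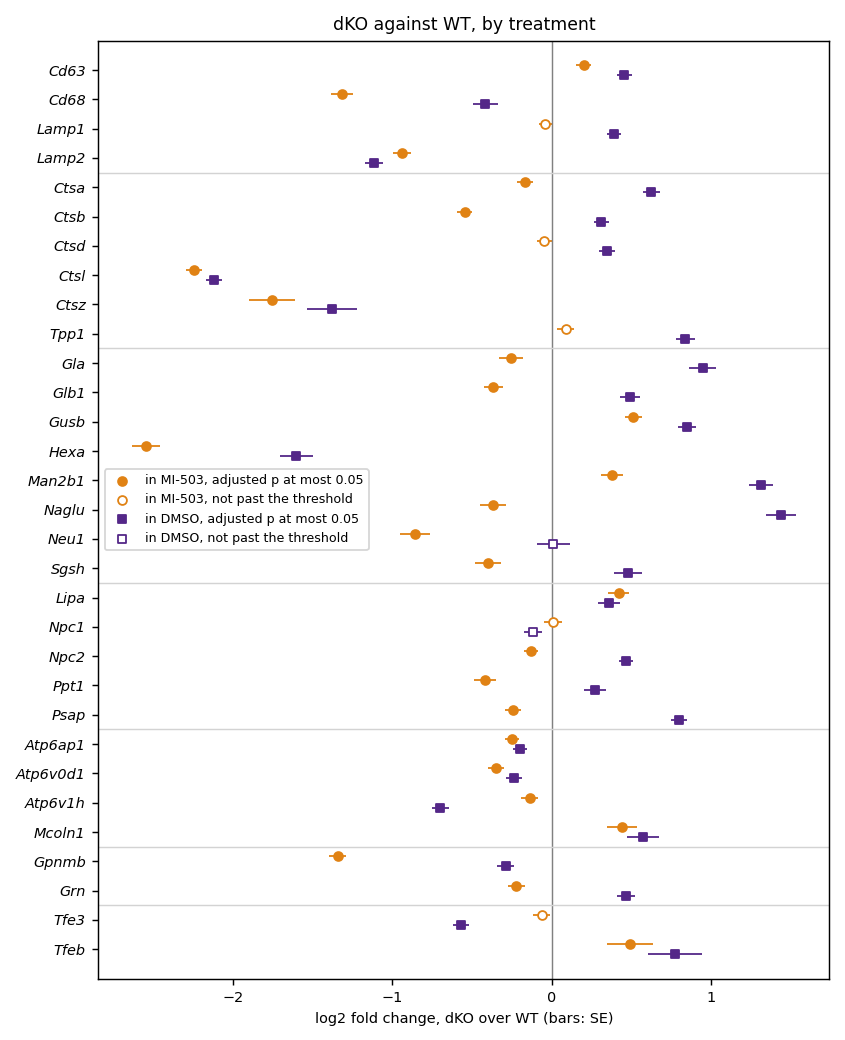
Log2 fold change of each of the 31 lysosome genes in dKO against WT, in MI-503 and in DMSO, as points with bars of 1 SE, grouped by role. Ctsl, Hexa, Ctsz and Lamp2 lie well below 0 under both treatments, Gpnmb and Cd68 mainly in MI-503, and Naglu and Man2b1 have the highest DMSO points. Open points did not pass the threshold.

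A second set of 9 genes was lower in dKO under both treatments: Ctsl, Hexa, Ctsz, Lamp2, Gpnmb, Cd68, Atp6v1h, Atp6v0d1 and Atp6ap1. Over all genes tested, 35.8% were lower in DMSO and 28.5% in MI-503. The share lower in both was not counted, so the 9 are a list and not an excess. The cathepsin Ctsl had a log2 fold change of -2.12 (SE 0.051, adjusted p = 5.13e-13) in DMSO and -2.24 (SE 0.051, adjusted p = 4.13e-13) in MI-503. The hexosaminidase subunit Hexa had -1.60 (SE 0.10, adjusted p = 8.34e-09) in DMSO and -2.54 (SE 0.090, adjusted p = 2.91e-11) in MI-503. Ctsz had -1.38 (SE 0.16, adjusted p = 3.13e-06) in DMSO and -1.76 (SE 0.15, adjusted p = 1.99e-07) in MI-503, and Lamp2 had -1.11 (SE 0.057, adjusted p = 9.87e-10) in DMSO and -0.94 (SE 0.057, adjusted p = 8.55e-09) in MI-503. For these 4 the genotypes differed more than the treatments did within dKO. Within WT, the log2 fold change of Hexa with MI-503, 1.89, exceeded in size its genotype difference in DMSO. Gpnmb was slightly lower in dKO in DMSO, -0.29 (SE 0.055, adjusted p = 0.000384), and clearly so in MI-503, -1.34 (SE 0.053, adjusted p = 9.05e-11). Cd68 had -0.42 (SE 0.079, adjusted p = 0.000367) in DMSO and -1.32 (SE 0.069, adjusted p = 1.59e-09) in MI-503. With library size alone the DMSO values did not pass, at -0.061 for Gpnmb (adjusted p = 0.341) and -0.19 for Cd68 (adjusted p = 0.0506). The pump genes differed by -0.70 (Atp6v1h), -0.24 (Atp6v0d1) and -0.20 (Atp6ap1) in DMSO and by -0.14, -0.35 and -0.25 in MI-503, in the same order. With library size alone the DMSO value of Atp6v0d1 was -0.0078 (adjusted p = 0.901), and that of Atp6ap1 turned to 0.027 (adjusted p = 0.592). The MI-503 call for Atp6v1h ended without any one of the 4 MI-503 libraries, with values from -0.17 to -0.10.

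The 6 genes that were higher in dKO under both treatments were Man2b1, Gusb, Tfeb, Mcoln1, Cd63 and Lipa. Over all genes tested, 29.6% were higher in DMSO and 26.6% in MI-503, and the share higher in both was not counted. Man2b1 had a log2 fold change of 1.31 (SE 0.075, adjusted p = 2.79e-09) in DMSO and 0.38 (SE 0.070, adjusted p = 0.000415) in MI-503, and Gusb had 0.85 (SE 0.054, adjusted p = 8.21e-09) in DMSO and 0.51 (SE 0.052, adjusted p = 1.64e-06) in MI-503. Tfeb had 0.77 (SE 0.17, adjusted p = 0.00124) in DMSO and 0.49 (SE 0.15, adjusted p = 0.0108) in MI-503, and the MI-503 call ended without WT MI-503 replicate 1 (0.44, adjusted p = 0.0754) or dKO MI-503 replicate 1 (0.40, adjusted p = 0.0784). Mcoln1, Cd63 and Lipa had 0.57, 0.46 and 0.36 in DMSO, and 0.44, 0.20 and 0.42 in MI-503, in that order. Of the other 3 members, Tfe3 was lower in dKO in DMSO, at -0.57 (SE 0.053, adjusted p = 3.79e-07), and did not pass in MI-503, at -0.061 (SE 0.053, adjusted p = 0.361), where its libraries overlapped. Neu1 was lower in dKO in MI-503, at -0.86 (SE 0.094, adjusted p = 3.74e-06), and did not pass in DMSO, at 0.0097 (SE 0.10, adjusted p = 0.943). Npc1 passed in neither, at -0.12 (adjusted p = 0.0831) in DMSO and 0.0058 (adjusted p = 0.942) in MI-503. By group means, WT MI-503 was the highest group for 19 of the 31, dKO MI-503 for 6, WT DMSO for 5 and dKO DMSO for 1. The lowest was WT DMSO for 20, dKO DMSO for 7, dKO MI-503 for 3 and WT MI-503 for 1. Highest and lowest groups were not counted over all genes, so these numbers only describe the members.

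Other genes of the same pathway were read from 4 lists of background knowledge. Of 47 further genes of lysosomal enzymes and membrane proteins, 45 were tested. With MI-503, 27 of them rose and 7 fell in dKO, and 33 rose and 9 fell in WT, with a median log2 fold change of 0.35 in dKO and 0.65 in WT. As shares, 60% rose and 15.6% fell in dKO, beside 29.1% and 26.5% of all genes, and 73.3% rose and 20% fell in WT, beside 35.2% and 33.7%. In dKO against WT, 19 were higher and 15 lower in DMSO, and 9 were higher and 21 lower in MI-503. The shares were 42.2% higher and 33.3% lower in DMSO, beside 29.6% and 35.8% of all genes, and 20% higher and 46.7% lower in MI-503, beside 26.6% and 28.5%. The interaction was negative for 25 and positive for 3, or 55.6% and 6.67%, beside 22% and 24.8% of all genes. Arsa, the sulfatase deficient in metachromatic leukodystrophy, had 29.8 and 26.5 CPM in dKO MI-503, 9.32 and 11.2 in dKO DMSO, 19.1 and 19.6 in WT MI-503 and 3.65 and 4.02 in WT DMSO, a log2 fold change with MI-503 of 1.46 (adjusted p = 1.99e-08) in dKO and 2.34 (adjusted p = 2e-10) in WT. It was higher with MI-503 in each genotype. Gm2a, the activator that presents GM2 to the hexosaminidase of Hexa, had 40.0 and 38.9 CPM in dKO MI-503, 16.3 and 15.4 in dKO DMSO, 61.9 and 65.5 in WT MI-503 and 14.1 and 13.4 in WT DMSO, a log2 fold change with MI-503 of 1.32 (adjusted p = 1.25e-09) in dKO and 2.21 (adjusted p = 3.47e-12) in WT. Arsb, another sulfatase, was the reverse of Hexa by genotype. It had 60.5 and 58.0 CPM in dKO MI-503, 35.9 and 35.4 in dKO DMSO, 20.4 and 19.5 in WT MI-503 and 6.63 and 7.31 in WT DMSO, and its log2 fold change in dKO against WT was 2.36 (adjusted p = 5.47e-12) in DMSO and 1.57 (adjusted p = 1.33e-10) in MI-503. Ctsh, a cathepsin that works mainly as an aminopeptidase, had 3.55 and 3.55 CPM in dKO MI-503, 2.88 and 2.55 in dKO DMSO, 126 and 128 in WT MI-503 and 100.2 and 100.1 in WT DMSO, and its log2 fold change in dKO against WT was -5.21 (adjusted p = 5.19e-15) in DMSO and -5.16 (adjusted p = 6.85e-15) in MI-503. Its dKO libraries lay far below its WT libraries, as did those of Ctsl and Ctsz. Cln3, a membrane protein mutated in juvenile neuronal ceroid lipofuscinosis, had 8.56 and 8.04 CPM in dKO MI-503, 4.14 and 3.62 in dKO DMSO, 26.4 and 24.9 in WT MI-503 and 11.0 and 9.67 in WT DMSO, and was lower in dKO, with log2 fold changes of -1.41 (adjusted p = 2.99e-08) in DMSO and -1.63 (adjusted p = 3.16e-09) in MI-503.

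All 14 genes that sort enzymes to lysosomes were tested. With MI-503, 5 rose and 6 fell in dKO (35.7% and 42.9%) and 6 rose and 3 fell in WT (42.9% and 21.4%), beside the shares of all genes given above. In dKO against WT, 3 were higher and 7 lower in DMSO (21.4% and 50%), beside 29.6% and 35.8% of all genes. In MI-503, 1 was higher and 7 lower (7.14% and 50%), beside 26.6% and 28.5% of all genes. Sort1, the sorting receptor sortilin, had 1.13 and 1.33 CPM in dKO MI-503, 0.622 and 0.603 in dKO DMSO, 46.8 and 49.2 in WT MI-503 and 7.55 and 7.59 in WT DMSO. It was far lower in dKO than in WT, and its log2 fold change in dKO against WT was -3.63 (adjusted p = 1.33e-11) in DMSO and -5.29 (adjusted p = 7.88e-14) in MI-503. With MI-503 it changed by 1.00 (adjusted p = 0.000128) in dKO and 2.66 (adjusted p = 3.43e-12) in WT. Ap3d1, a subunit of the AP-3 adaptor, had 53.1 and 54.0 CPM in dKO MI-503, 129 and 127 in dKO DMSO, 52.9 and 51.3 in WT MI-503 and 180.4 and 169 in WT DMSO. It fell with MI-503, with log2 fold changes of -1.26 (adjusted p = 1.87e-10) in dKO and -1.75 (adjusted p = 2.61e-12) in WT. Gga2, an adaptor for mannose 6-phosphate receptors, had 26.2 and 25.9 CPM in dKO MI-503, 13.8 and 15.1 in dKO DMSO, 47.8 and 50.2 in WT MI-503 and 34.7 and 33.9 in WT DMSO, and was lower in dKO, with log2 fold changes of -1.25 in DMSO and -0.91 in MI-503. Its relative Gga1 was higher in dKO in DMSO, by 1.02 (adjusted p = 1.14e-06), with 51.4 and 62.9 CPM in dKO DMSO against 30.4 and 26.0 in WT DMSO.

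Of 22 further V-ATPase subunits, 17 were tested. With MI-503, 8 rose and 4 fell in each genotype, that is 47.1% and 23.5%, beside 29.1% and 26.5% of all genes in dKO and 35.2% and 33.7% in WT. In dKO against WT, 5 were higher and 10 lower in DMSO, and 3 were higher and 11 lower in MI-503. Those higher were 29.4% in DMSO and 17.6% in MI-503, beside 29.6% and 26.6% of all genes, and those lower were 58.8% and 64.7%, beside 35.8% and 28.5%. With library size alone, 7 were higher and 6 lower in DMSO, and 3 were higher and 9 lower in MI-503. Alternative forms of the a subunit differed. Atp6v0a1 had 42.0 and 43.0 CPM in dKO MI-503, 51.1 and 50.9 in dKO DMSO, 105 and 103 in WT MI-503 and 41.3 and 41.5 in WT DMSO, and changed with MI-503 by -0.26 (adjusted p = 0.000502) in dKO and 1.33 (adjusted p = 2.91e-11) in WT. Tcirg1, the form known from osteoclasts, had 54.9 and 50.5 CPM in dKO MI-503, 29.8 and 34.4 in dKO DMSO, 35.7 and 31.8 in WT MI-503 and 17.3 and 16.4 in WT DMSO, and rose by 0.71 (adjusted p = 4.25e-06) in dKO and 1.00 (adjusted p = 1.16e-07) in WT. Atp6v1a, the catalytic subunit, had 139 and 143 CPM in dKO MI-503, 169.6 and 161 in dKO DMSO, 221 and 229 in WT MI-503 and 361 and 373 in WT DMSO, and fell, with log2 fold changes of -0.23 (adjusted p = 0.000899) in dKO and -0.70 (adjusted p = 8.33e-09) in WT. It was highest in WT DMSO. Atp6v1b2 was lower in dKO, with log2 fold changes of -0.79 (adjusted p = 1.74e-08) in MI-503 and -0.15 (adjusted p = 0.0226) in DMSO, a value that turned to 0.081 (adjusted p = 0.165) with library size alone. Atp6v1f rose with MI-503, by 0.58 (adjusted p = 2.32e-06) in dKO and 0.99 (adjusted p = 4.34e-09) in WT. Atp6v0c was higher in dKO in DMSO, by 1.13 (adjusted p = 0.000832), but it has near-identical processed copies and its counts are uncertain.

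Of 20 genes that control the Tfeb family, mainly the mTORC1, Ragulator and folliculin complexes and calcineurin, 19 were tested. With MI-503, 4 rose and 3 fell in dKO (21.1% and 15.8%) and 6 rose and 5 fell in WT (31.6% and 26.3%). In dKO against WT, 5 were higher and 8 lower in DMSO (26.3% and 42.1%), beside 29.6% and 35.8% of all genes. In MI-503, 2 were higher and 7 lower (10.5% and 36.8%), beside 26.6% and 28.5% of all genes. For the MI-503 effects, each share of the 19 is below that of all genes. Lamtor4, a Ragulator subunit, had 17.6 and 14.6 CPM in dKO MI-503, 9.64 and 10.8 in dKO DMSO, 22.6 and 21.3 in WT MI-503 and 5.63 and 5.39 in WT DMSO, and rose with MI-503 by 0.66 (adjusted p = 5.65e-05) in dKO and 1.99 (adjusted p = 6.54e-10) in WT. Lamtor1, another Ragulator subunit, was lower in dKO in MI-503, with a log2 fold change of -0.46 (adjusted p = 4.89e-05). Ppp3r1, the regulatory subunit of calcineurin, which dephosphorylates Tfeb, had 89.2 and 94.4 CPM in dKO MI-503, 144 and 132 in dKO DMSO, 93.3 and 98.4 in WT MI-503 and 241 and 255 in WT DMSO, and fell with MI-503, with log2 fold changes of -0.59 (adjusted p = 7.81e-07) in dKO and -1.37 (adjusted p = 6.54e-11) in WT. Like Tfe3, it was highest in WT DMSO. Fnip2, a partner of folliculin, was lower in dKO in MI-503, with a log2 fold change of -1.14 (adjusted p = 8.82e-10), with 29.5 and 31.3 CPM in dKO MI-503 against 66.4 and 67.8 in WT MI-503.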

How the data were processed

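PolyA RNA-seq of 8 libraries was read from the deposited table of read counts per Ensembl gene; its values are whole numbers with no normalization, and library totals ran from 58113705 to 68571176. STAR, Bowtie2, MACS3, deepTools and SICER are named for the whole series, with the build GRCm38 (mm10), per the submitters' processing notes. Versions were not given in the sources used here, and neither were the annotation release, the program that counted reads and whether it used strand. The counts of the 10 members that overlap another RefSeq gene are therefore uncertain in part. One row without an identifier was left out; of 53465 identifiers, 53274 had a symbol in the name table.

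Counts were filtered with filterByExpr (minimum count 10, minimum total 15), scaled by TMM (factors 0.892 to 1.06) and fitted with the edgeR 4.0.16 quasi-likelihood model in R 4.3.3, with 1 mean per group over 8 libraries. The biological coefficient of variation was 5.14%. Two-sided F tests were adjusted by Benjamini-Hochberg over 16921 genes. SE was derived from the log2 fold change and its F statistic, and the prior count was 0.125. A count of 0 allows up to 3 counts, 0.0438 to 0.0516 CPM, which covers counting error only. The 2 libraries of each group differed by more than sampling noise. The members, the other lists, the tests and the alternatives were chosen with earlier results of these data known. Besides the 31 members, the 2 largest changes of each other list in each of the 4 contrasts without the interaction were named, among genes that passed, averaged at least 5 CPM and did not overlap between groups. Alternatives were no filter or a stricter one (5 CPM in at least 2 libraries), scaling by RLE or by library size only, a Wald test in DESeq2 1.42.0, only the groups compared, a replicate block, ER chaperone genes left out of the scaling, each library left out and, added after the data were seen, both WT DMSO libraries left out.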

Additional observations from a re-analysis of the deposited data

Results flagged for a closer look

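The effect of MI-503 differed between the genotypes for 22 of the 31 lysosome genes and for 15 of the 19 other named genes of the pathway, each by the edgeR interaction test over all 16921 genes. Those 19 were named for their large changes. Over all tested genes of the 4 lists, it passed for 28 of 45 other lysosome genes, 10 of 14 sorting genes, 8 of 17 V-ATPase subunits and 11 of 19 genes that control the Tfeb family. Over all genes tested, 46.8% passed that test. Values are the log2 effect in dKO minus that in WT. Among the members, the difference was negative for Cd63 (-0.25), Cd68 (-0.90), Ctsa (-0.80), Ctsb (-0.86), Ctsd (-0.39), Gla (-1.20), Glb1 (-0.86), Gpnmb (-1.05), Grn (-0.69), Gusb (-0.34), Hexa (-0.94), Lamp1 (-0.43), Man2b1 (-0.93), Naglu (-1.80), Neu1 (-0.87), Npc2 (-0.60), Ppt1 (-0.69), Psap (-1.04), Sgsh (-0.88) and Tpp1 (-0.75). It was positive for Atp6v1h (0.56) and Tfe3 (0.51). Among the other genes, it was negative for Arsa (-0.88), Arsb (-0.79), Atp6v0a1 (-1.59), Atp6v1b2 (-0.65), Atp6v1f (-0.41), Fnip2 (-0.43), Gga1 (-0.92), Gm2a (-0.89), Lamtor1 (-0.38), Lamtor4 (-1.34) and Sort1 (-1.66), and positive for Ap3d1 (0.49), Atp6v1a (0.48), Gga2 (0.34) and Ppp3r1 (0.78). All of these rest on 2 libraries a group and on the WT DMSO libraries, whose ER chaperone share was 3.68% and 3.95% of counts against 0.420% to 0.547% elsewhere. The part of that state in the differences was not tested. With the 15 ER chaperone genes left out of the scaling, the calls of all 31 members in this comparison were as before. That step moved the median difference of all genes by 0.00034. It concerns the scaling only and cannot show what part that state has in the differences. Groups of 2 libraries are too small to test for an outlying library.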

How the results depend on the processing

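Of 2506 values of members recomputed under the alternatives, 2437 kept their side of the threshold, 59 no longer passed, 8 newly passed and 2 turned their sign. A turn of sign was counted only where the value passed in the main analysis or in the alternative. Values that passed in neither may have changed direction uncounted. The 2 counted turns came with scaling by library size only: Atp6ap1 with MI-503 in WT (0.040) and in dKO against WT in DMSO (0.027). Of the other genes named, Atp6v1b2 turned there in dKO against WT in DMSO (0.081). The number of members that fell with MI-503 in WT was 5, and 2 with library size only, 3 with no filter and 3 with DESeq2; the number lower in dKO in DMSO was 10, and 6 with library size only. With each library left out in turn, the members that rose and fell with MI-503 numbered 23 and 2 in dKO, and 26 and 3 to 5 in WT. The interaction was positive for 2 to 3 and negative for 19 to 20, and in dKO against WT 19 were higher and 10 lower in DMSO, and 5 to 6 higher and 16 to 20 lower in MI-503. With no filter, the share of positive interactions among all calls was 42.7% instead of 52.9%. Leaving ER chaperone genes out of the scaling changed no call of a member, and without both WT DMSO libraries 61 of 62 calls held. Deviations of same-numbered libraries from their group means correlated at 0.225 to 0.286 among WT DMSO, WT MI-503 and dKO MI-503, and at -0.48 to -0.329 between each of these and dKO DMSO. The labels do not say that a number marks a shared batch, so the samples were not treated as paired. A replicate block by number, which covers no factor numbered the other way in dKO DMSO, ended 2 calls, Atp6v0d1 with MI-503 in dKO (0.13, adjusted p = 0.0786) and Atp6v1h in dKO against WT in MI-503 (-0.14, adjusted p = 0.0661). The cause of these changes was not tested.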

Other observations

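Ratios of counts between 2 members of the same library do not depend on the scaling between libraries. Their absolute size depends on transcript length, so only their change between libraries is described, with no test, and the pairs were chosen after their values were seen. The ratio of Lamp2 to Lamp1 was 0.571 and 0.593 in dKO MI-503, 0.720 and 0.682 in dKO DMSO, 1.07 and 1.10 in WT MI-503 and 1.93 and 2.05 in WT DMSO. It was lower in every dKO library than in every WT library, and highest in WT DMSO. The ratio of Npc2 to Npc1, the soluble and the membrane partner in cholesterol export, was 4.83 and 4.56 in dKO MI-503, 2.51 and 2.48 in dKO DMSO, 5.22 and 5.11 in WT MI-503 and 1.70 and 1.63 in WT DMSO. It was higher in every MI-503 library than in every DMSO library. The ratio of Tfeb to Tfe3 was 0.0817 and 0.0752 in dKO MI-503, 0.0277 and 0.0358 in dKO DMSO, 0.0505 and 0.0568 in WT MI-503 and 0.0124 and 0.0128 in WT DMSO, again higher in every MI-503 library than in every DMSO library.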
